A study of Gasterosteus aculeatus with 12 samples.

Results

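Sites at which stickleback F1 embryos carried the alternate base and almost no reference base were selected from allele counts of single-nucleotide sites. Each count is the number of RNA-seq reads with the reference or the alternate base at 1 site. A site was taken as fixed for the alternate base when it was listed in all 12 embryos, had more than 12 counted reads in each, lay outside the unplaced sequence chrUn, had at most 5% of its pooled raw reads set aside for low mapping quality, and had an alternate share of at least 0.98 in every embryo. Of 102539 sites that met the depth, mapping quality and location limits, called sites of the same depth below, 193 met the limit on the alternate share, which is 0.188%. The alternate share chose these sites, so their shares and their density are given as a description without a test.

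The 12 samples were whole *Gasterosteus aculeatus* embryos at 72 h post-fertilization (stage 19/20) in a single group, all F1 offspring of LITC fish crossed with high-spine fish. LITC stands for an anadromous stock from Little Campbell with predominantly 3 dorsal spines. The high-spine stock descends from a cross of Boulton with Bodega Bay fish and was selected for spine number. Libraries were made from 200 ng of RNA with 12 cycles of PCR, and between 16302333 and 27003127 reads per embryo were counted over all listed sites. The methods describe an LITC female mated with a high-spine male for the clutch that gave the spine and fin tissues. A figure legend states that the embryos came from a different cross. The methods do not say which stock gave the mother of that cross. Whether all 12 embryos came from 1 pair of parents is not stated outright, and no genotypes of parents were analysed here.

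An F1 embryo takes 1 copy of each nuclear chromosome from either parent. Where both parental chromosomes carry a base that differs from the reference genome, all reads carry that base, and the site cannot tell the parental alleles apart. The mitochondrial genome comes from the mother only, so a mitochondrial site describes the female line alone. A parent with both bases that passed the alternate base to all 12 embryos, and a site at which reads came from 1 parental allele only, would meet the same limits, and cannot be told apart from a fixed difference of both parents by these counts.

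The counts of the rarer base describe how far the selected sites were from holding no reference read. The limit on the alternate share already caps reference reads in every embryo. Their rarity was thus set by the selection and cannot check the label of fixed difference. No reference read was found in any embryo at 34 of the 193 sites (17.6%). At these 34 sites between 293 and 2968 reads were pooled per site, 23839 in all. A reference read occurred in 1 embryo at 43 sites, in 2 or 3 embryos at 45 sites, in 4 to 11 embryos at 60 sites and in every embryo at 11 sites. The pooled alternate share per site had a median of 99.8% and a range of 98.9% to 100%. Most of the selected sites were therefore nearly, and not entirely, without reference reads.

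In each embryo the reference reads made up a similar small share of the reads at the 193 sites. The share was lowest in replicate 4 (0.170%), had a median of 0.204% and was highest in replicate 12 (0.227%), with a mean of 0.203% ± 0.0169 (SD, n = 12). This share weights deep sites, the mitochondrial ones among them. On the numbered chromosomes alone it was lowest in replicate 7 (0.196%) and highest in replicate 2 (0.252%). The mean there was 0.229% ± 0.0191 (SD, n = 12). The number of fixed sites with at least 1 reference read ranged from 43 in replicates 1 and 7 to 67 in replicate 5. That number was not adjusted for depth, and replicates 1 and 7 had the fewest reads at fixed sites (55550 and 53661). No embryo stood apart in the share of reference reads. For comparison, 11347 sites of the same depth were reference-only, with an alternate share of at most 0.02 in every embryo. At these sites the alternate base made up 0.0324% ± 0.00331 of the reads (SD, n = 12), with a range of 0.0251% to 0.0391%. The ranges of the 12 embryos did not overlap between both kinds of site. Per site, the median pooled share of the rarer base was 0.172% at fixed sites and 0.0275% at reference-only sites, and 34.9% of the reference-only sites had no read of the rarer base. Both kinds of site were chosen by these shares, and the difference was not tested.

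**Figure D1:**
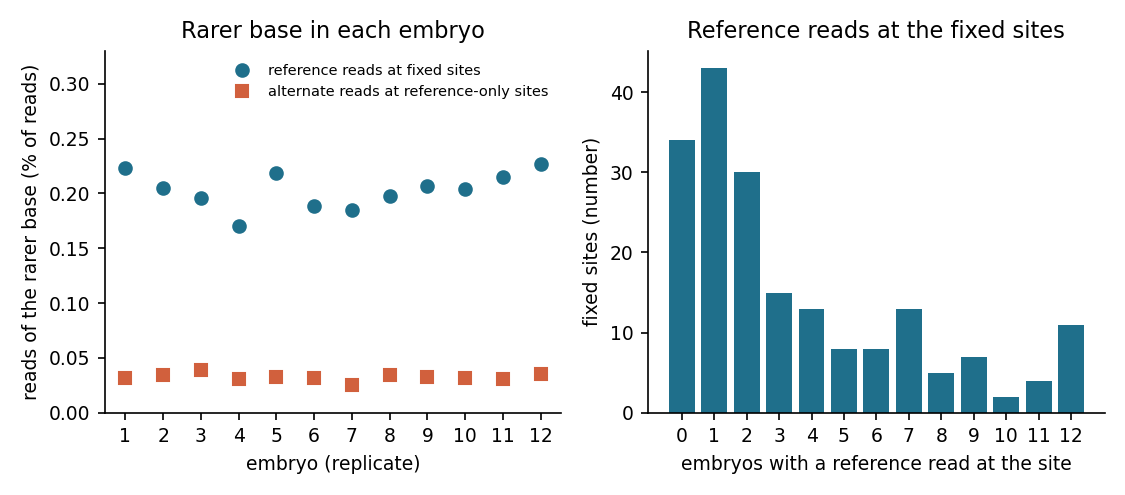
Left, the percent of reads with the rarer base in each of the 12 embryos, as reference reads at the 193 fixed sites (circles) and alternate reads at the 11347 reference-only sites (squares). Right, the number of fixed sites by how many embryos held a reference read there. All circles lie between 0.170% and 0.227% and all squares between 0.0251% and 0.0391%, and 34 sites held no reference read.

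Fixed sites were a small class among the listed sites. At 17774 sites of the same depth (17.3%) every embryo had both bases, with a share of each of at least 0.1, and these are called heterozygous below. At 10758 sites (10.5%) the embryos were either heterozygous or at 0.98 or more, and at 46688 sites (45.5%) they were either heterozygous or at 0.02 or less. Reference-only sites were 58.8 times as frequent as fixed sites, and the second pair of classes differed by 4.34 times in the same direction. The methods give a rule for the SNPs analysed, which had to be called heterozygous in some tissue of every fish and exceed a minor allele frequency. Fixed sites fall below that frequency and were still listed. How the sites to be listed were chosen for the embryos is not given in the sources used here. The count of 193 is thus a count among listed sites, not a count of the differences between these fish and the reference genome.

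At the limit of 0.98 the share of fixed sites was lowest among the least covered sites. By arithmetic, a site with fewer than 50 reads in an embryo must have no reference read there to reach 0.98. Of sites with 13 to 20 reads in the least covered embryo, 15 of 26761 were fixed (0.0561%, 95% exact Clopper-Pearson interval 0.0314% to 0.0924%). Of sites with at least 200 reads, 33 of 7966 were fixed (0.414%, interval 0.285% to 0.581%). At a limit of 0.95 the same classes of depth were at 0.277% and 0.477%, and the highest share was 0.502%, at 21 to 49 reads, so the rise with depth was smaller and not steady. The intervals here and below cover counting error only, over sites taken as independent. Sites on the same stretch of a chromosome can be inherited together, so the intervals may be too narrow. Reads without molecular identifiers are not independent molecules either. At 94 of the 193 fixed sites the least covered embryo had fewer than 50 reads. The pooled depth of fixed sites had a median of 1070 reads and that of all sites of the same depth a median of 751 reads.

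Chromosome IV had the most fixed sites and the highest share among the 21 numbered chromosomes. It held 29 fixed sites of 5251 sites of the same depth (0.552%, interval 0.370% to 0.792%), which is 15.03% of all fixed sites and 5.12% of the sites of the same depth. Chromosome XX followed with 14 of 3875 sites (0.361%, interval 0.198% to 0.605%), and chromosome XXI with 7 of 2417 sites (0.290%, interval 0.117% to 0.596%). The intervals of these chromosomes overlapped each other. Together the 21 chromosomes held 189 fixed sites (0.185%), and 160 of 97145 sites (0.165%) were fixed when chromosome IV was left out.

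The lowest share was found on chromosome XIX, the sex chromosome of this species, with 7 of 9544 sites (0.0733%, interval 0.0295% to 0.151%). Chromosome XIX had more sites of the same depth than any other chromosome and only 3.22% of them were heterozygous in every embryo. Chromosome XIII with 4 of 4380 sites (0.0913%) and chromosome IX with 6 of 6358 sites (0.0944%) came next. The intervals of chromosomes IX, XIII and XIX all lay below that of chromosome IV. The interval of chromosome XIX also lay below that of chromosome XX, which the intervals of chromosomes IX and XIII overlapped. All other chromosomes lay between 0.114% and 0.239%, and the intervals of neighbours in that order overlapped. At an alternate share of at least 0.95, the lowest was chromosome XVI (0.182%), with chromosome XIX at 0.189%. The highest and lowest chromosomes were picked after ranking all 21 by the share of fixed sites. Intervals that lie apart are thus a description and not a test. The share of heterozygous sites did not give the same order, as it was 26.9% on chromosome IV, 30.4% on chromosome XX, 34.0% on chromosome XI and 33.8% on chromosome XIII.

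**Figure D2:**
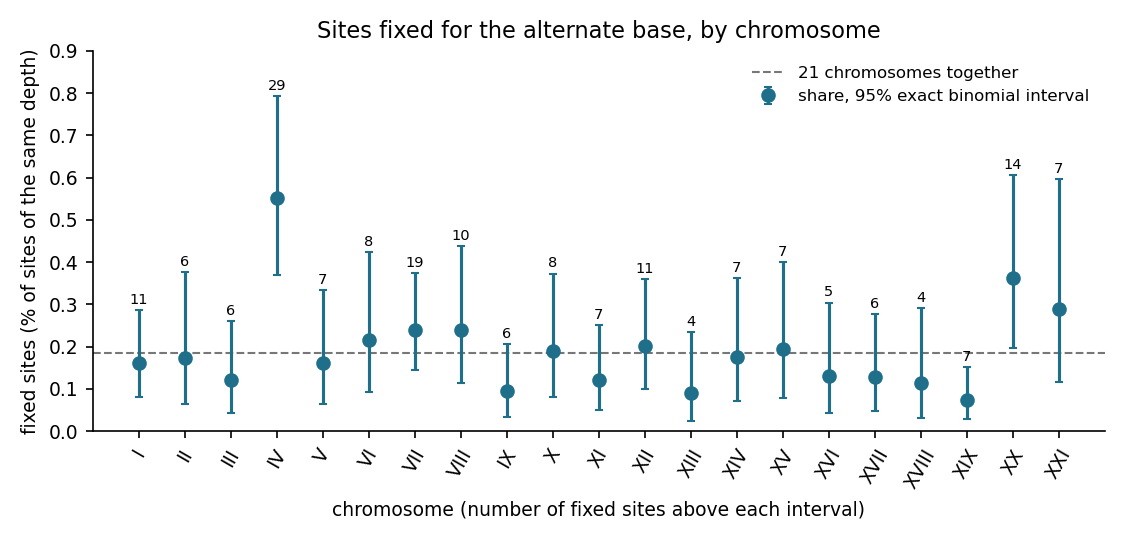
Fixed sites as a percent of sites of the same depth on each of the 21 numbered chromosomes, with 95% exact binomial intervals and the number of fixed sites above each interval. The dashed line is the share over all 21 chromosomes (0.185%). Chromosome IV is at 0.552% and chromosome XIX at 0.0733%.

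Per length of chromosome, chromosomes IV and XX again had the most fixed sites. Between the lowest and the highest listed site, chromosome IV had 8.47 fixed sites per 10 Mb, chromosome XX had 6.86 and chromosome VII had 6.21, beside a median of 4.03 over the 21 chromosomes. Chromosome XXI, the third by share of sites, had 4.17 and was at rank 10. Chromosome XIX, the lowest by share of sites, had 3.47 and was at rank 14, with 473.6 sites of the same depth per Mb. Its low share was thus not matched by the lowest number per length, which was 1.93 on chromosome XIII. Chromosome VII held 19 fixed sites, the number next to that of chromosome IV. The 117 sites of the same depth on the sequence named chrP, which the sources used here do not describe, included no fixed site, and a count of 0 there allows a share of up to 3.104% (exact interval).

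Within chromosomes the fixed sites were thinly spread. In windows of 1 Mb with at least 50 sites of the same depth, 273 of 420 windows (65.0%) had no fixed site, 113 had 1, 26 had 2 and 8 had 3. No window had more than 3. On chromosome IV, 20 of 33 windows (60.6%) had a fixed site, and on the other chromosomes 127 of 387 windows (32.8%). The 29 sites of chromosome IV were thus distributed over most of its windows.

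The window with the highest share was chromosome IV from 26000001 to 27000000 of *gasAcu1-4*, with 3 fixed sites of 106 (2.83%, interval 0.588% to 8.05%). These were C26410531T, C26605218A and C26634440T, written as the reference base, the position and the alternate base. They lay within 223909 bp. Next came the windows at 9000001 to 10000000 of chromosome XXI with 2 of 79 sites, 11000001 to 12000000 of chromosome XX with 2 of 99 sites, 20000001 to 21000000 of chromosome XVII with 1 of 50 sites, and 21000001 to 22000000 of chromosome IV with 2 of 115 sites. With 1 to 3 fixed sites each, their intervals overlapped one another. All 273 windows without a fixed site shared the lowest value of 0. Of these the window with the most sites was chromosome XIX from 16000001 to 17000000, where 0 of 685 sites allow a share of up to 0.537%, and the next 3 windows by number of sites were also on chromosome XIX.

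The base changes of the fixed sites differed in make-up from those of heterozygous sites. Transitions, changes between A and G or between C and T, made up 108 of the 193 fixed sites (56.0%, interval 48.7% to 63.1%) and 60.2% of heterozygous sites (interval 59.5% to 61.0%), so their shares overlapped. Within the transitions the direction differed. A-to-G and T-to-C changes made up 75 fixed sites (38.9%, interval 31.9% to 46.1%) and C-to-T and G-to-A changes 33 (17.1%, interval 12.1% to 23.2%). At heterozygous sites the order was the opposite, with 25.1% A-to-G and T-to-C (interval 24.4% to 25.7%) and 35.2% C-to-T and G-to-A (interval 34.5% to 35.9%). The ratio of the former to the latter was 2.27 at fixed sites, 0.712 at heterozygous sites, 0.699 at reference-only sites and 1.08 at sites with heterozygous and alternate-homozygous embryos.

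The same shift was seen when transversions were added. A change from a reference A or T to an alternate G or C was found at 98 fixed sites (50.8%) and 34.7% of heterozygous sites, and a change from a reference G or C to an alternate A or T at 51 fixed sites (26.4%) and 47.1% of heterozygous sites. Both strands of each transition occurred at similar numbers, with 35 A-to-G and 40 T-to-C sites, and 17 C-to-T and 16 G-to-A sites. With an alternate share of at least 0.95, 416 sites were selected and 42.3% of them were A-to-G or T-to-C.

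Most fixed sites had no other fixed site close by. Of the 193 sites, 10 (5.18%, interval 2.51% to 9.32%) had another fixed site within 100 bp, while 36.6% of heterozygous sites had another heterozygous site within that distance. The heterozygous sites were far more numerous, so both shares are given side by side and were not compared as clustering. Among the nearest sites of the same depth within 30 bp of a fixed site, 4 of 64 at the lower coordinate were fixed (6.25%). At the higher coordinate 4 of 27 were fixed (14.8%). These are the same pairs seen from either side. Of all sites of the same depth 0.188% were fixed, so close pairs were more frequent than that share, which was not tested. The median distance between fixed sites next to each other on a chromosome was 1280250 bp. Chains of fixed sites with gaps of at most 100 bp numbered 5, and each was a pair.

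The pairs were T2183444G and G2183445A on chromosome XI, C8807424G and G8807425C on chromosome XV, A797745G and A797747C on chromosome XII, A12110782C and G12110785A on chromosome I, and A5438821G and G5438899A on chromosome XI, with distances of 1, 1, 2, 3 and 78 bp. In every pair but the last, no other site of the same depth lay in between. Runs of neighbouring sites of the same depth that were all fixed held at most 2 sites, and 6 such runs were found. The longest in distance were A19975347G with T19985733C on chromosome IV (10386 bp), C8795500G with T8796228C on chromosome XX (728 bp) and the pair on chromosome I. No longer block of neighbouring fixed sites was present at this density of sites of the same depth.

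Fixed sites had listed neighbours more often at the lower than at the higher coordinate. A site of the same depth lay within 10 bp at the lower coordinate of 48 fixed sites (24.9%, interval 18.9% to 31.6%) and at the higher coordinate of 18 (9.33%, interval 5.62% to 14.3%). At 50 bp the numbers were 72 and 30. Heterozygous sites showed no such imbalance, with 10.2% at the lower and 9.89% at the higher coordinate within 10 bp. Coordinates run along the chromosome and do not follow the direction of transcription, which was not known for single sites here. The pattern was noticed in these data and was not tested.

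**Figure D3:**
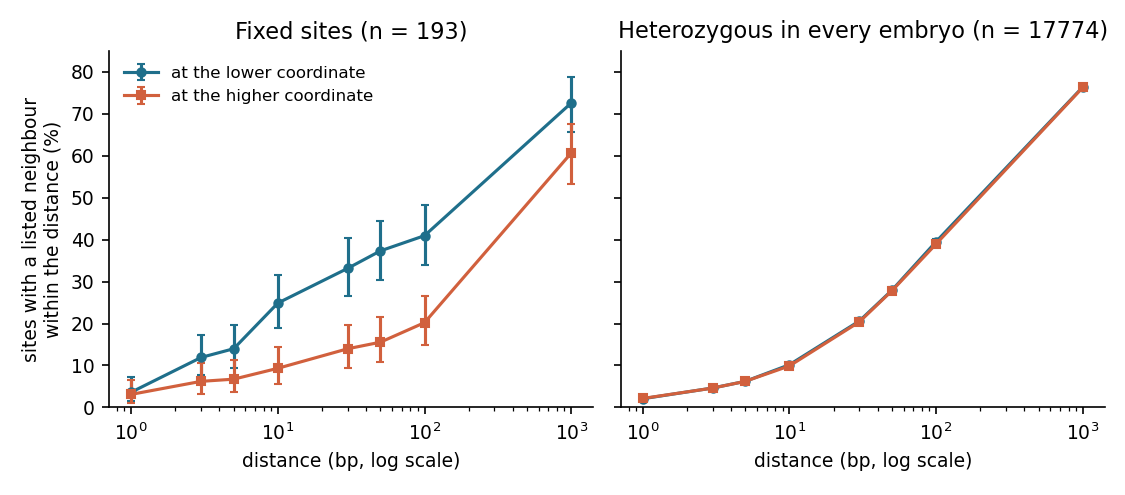
Percent of sites with a neighbouring site of the same depth within a distance in bp (log axis), at the lower coordinate (circles) and at the higher coordinate (squares), with 95% exact binomial intervals, for 193 fixed sites (left) and 17774 heterozygous sites (right). Within 10 bp the values are 24.9% and 9.33% for fixed sites and 10.2% and 9.89% for heterozygous sites.

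Many of these close neighbours were reference-only. Of the 64 neighbours within 30 bp at the lower coordinate, 43 (67.2%) were reference-only and 4 were fixed themselves, and the neighbours' median pooled alternate share was 0.115%. Of the 27 neighbours within 30 bp at the higher coordinate, 7 (25.9%) were reference-only. At heterozygous sites 3.28% of the 3661 neighbours within 30 bp at the lower coordinate were reference-only. A reference-only site within 30 bp on any side was found at 50 of the 193 fixed sites (25.9%, interval 19.9% to 32.7%), at 1.28% of heterozygous sites and at 5.11% of all sites of the same depth. Reference-only sites themselves had another such site within 30 bp in 30.7% of cases.

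The 50 fixed sites beside a reference-only site were deeper than the other 143, with a median of 2790.5 against 952 pooled reads. No reference read in any embryo was found at 5 of the 50 and at 29 of the 143. Of the 29 fixed sites on chromosome IV, 24 had no reference-only site within 30 bp. These 24 made up 0.457% of all 5251 sites of the same depth on chromosome IV, with or without such neighbours. Counted in this way, chromosome IV still had the highest value of the 21 chromosomes. A-to-G and T-to-C changes made up 34.0% of the 50 and 40.6% of the 143 sites, so their excess over C-to-T and G-to-A changes was present in both.

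The fixed site with the most reads was C11486528T on chromosome IV. It was covered by a lowest of 6958, a median of 9344 and a highest of 10711 reads per embryo, with an alternate share of 99.88% to 99.99%. In all, 62 of its 109179 pooled reads had the reference base. At 5 bp from it, the listed site G11486523T had 108580 pooled reads, of which 18 (0.0166%) had the alternate base. Bases 5 bp apart under nearly the same reads were thus listed with shares at opposite ends.

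Similar pairs were seen for other deeply covered sites. T8734480C on chromosome XVIII was covered by 1676, 2463.5 and 3102 reads (lowest, median and highest embryo), with 72 reference reads of 28534 in all. At 2 bp from it, A8734478T had no alternate read in 29095. T11306769C on chromosome IX had the lowest pooled alternate share of all fixed sites (98.9%), with 223 reference reads of 20927 and embryos between 98.4% and 99.4%. At 3 bp from it, G11306766A had 8 alternate reads of 21803. T11839704C on chromosome IV had 109 reference reads of 26614 and embryos between 99.4% and 99.7%. Its nearest site at the lower coordinate lay 496 bp away. All of these sites had reference reads in all 12 embryos.

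On the mitochondrial sequence, 4 of 26 sites of the same depth were fixed (15.4%, interval 4.36% to 34.9%). The interval lay above that of each numbered chromosome, but it takes as independent 26 sites that are inherited together. The shares are also of unlike kinds. A mitochondrial site needs the alternate base from the mother only, and a nuclear site needs it from both parents. The sites were T7784C, G8914A, C13360T and T14574C, all transitions, and they held 28.7% of all reads counted at fixed sites. G8914A was covered by a lowest of 4863, a median of 6863.5 and a highest of 8415 reads per embryo, and had 147 reference reads of 80992. T7784C had 51 reference reads of 73418, T14574C had 43 of 58380 and C13360T had 88 of 28273. The range of the embryos' alternate shares over these 4 sites was 99.34% to 99.98%. A10753G had a pooled alternate share of 98.3% and was outside the limit because its lowest embryo was at 97.9%. Of the other mitochondrial sites, 16 were reference-only, 2 met the limits of the heterozygous class and 4, with A10753G among them, met neither. The 2 were A778G and A2136T, with pooled alternate shares of 25.2% and 26.3%. The heterozygous class is thus set by read shares and not by known genotypes.

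At the limit of 0.98, sites just inside and just outside were alike in reads. By the lowest embryo, and at equal values by pooled reads, the 3 sites just inside were C24887952G on chromosome VII (98%, 5 reference reads of 940), G8807425C on chromosome XV (98%, 3 of 653) and T17364011C on chromosome X (98.04%, 2 of 805), which shared its value with 3 others, 4 sites in all. The 3 sites next outside were T17061693C on chromosome XXI (8 reference reads of 1760), C17063301G on chromosome X (3 of 960) and T200843C on chromosome XVII (1 of 933), each at 97.96% in its lowest embryo, the value of 5 sites. A single reference read in 49 excluded T200843C, which had no reference read in the other 11 embryos. Between 0.97 and 0.98 in the lowest embryo lay 101 sites, as many as between 0.98 and 0.99.

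Each embryo was then left out in turn, and its counts were read at the sites that were at 0.98 or more in the other 11. These sites numbered 198 to 226, and always included the 193. The embryo left out was also at 0.98 or more at 94.2% ± 3.11 of them (SD, n = 12), with the lowest value of 85.4% in replicate 7 and the highest of 97.5% in replicate 9. Those at the limit were the same 193 sites each time. The SD thus follows only how many sites the other 11 embryos selected, and is not a spread of independent replicates. Of the remaining sites, 125 over all embryos were between 0.9 and 0.98, and no site was below 0.1. Replicates 7 and 1 had the most sites between 0.9 and 0.98 (19 and 16). They also had the fewest counted reads (16302333 and 18172341). In 9 of the 12 embryos no site was between 0.1 and 0.9.

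The 19 sites with both bases in the embryo left out were found in 3 embryos, and 18 of them lay in 2 stretches. Replicate 7 held 14 of them, all between 17877879 and 18811836 on chromosome VI, a stretch of 934 kb. Its alternate share there was 38.9% at the lowest, 51.0% at the median and 59.1% at the highest site, at 17 to 103 reads per site. Replicate 2 held 4, all between 27217404 and 27984700 on chromosome VII, with shares of 25% to 51.3%. Replicate 11 held 1, T7199314C on chromosome XXI, with a share of 88.9% at 18 reads. At these 18 sites 11 embryos had almost only the alternate base and 1 embryo had both. They were a small part of 288 sites of the same depth in the stretch on chromosome VI, of which 55 were heterozygous in every embryo, and of 174 in the stretch on chromosome VII, of which 12 were.

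Fixed sites occurred inside these stretches too. The stretch on chromosome VI held 2 sites that were fixed in all 12 embryos, A18030190G and T18401385C, and that on chromosome VII held 1. On chromosome VI the stretch began 94.3 kb and ended 1028 kb beyond the site that the study plots for *HOXD4B*. *HOXD11B*, *HOXD9B* and *HOXD4B* are genes of the *HOXDB* cluster, which encodes transcription factors of axial patterning. The study scores alleles at several sites in each gene and plots the allele ratio at 1 of them, which is the site used here. None of the 193 fixed sites lay within 100 kb of these 3 sites, and the nearest lay 246.6 kb away. The 55 sites of the same depth within 100 kb were too few to show a difference from the overall 0.188%, as 0 of 55 allows a share of up to 6.49%.

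**Figure D4:**
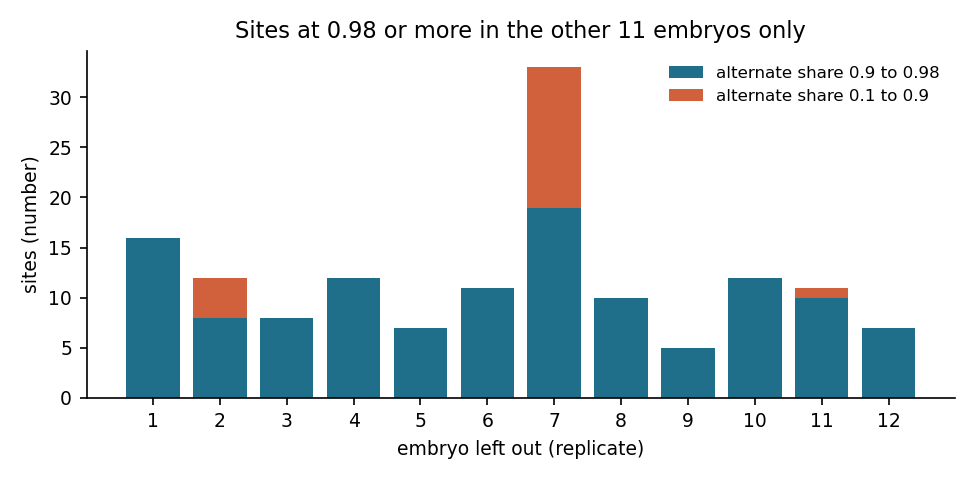
Number of sites at which the other 11 embryos had an alternate share of at least 0.98 and the embryo left out did not, by its own share (0.9 to 0.98, or 0.1 to 0.9). Replicate 7 had 14 sites and replicate 2 had 4 sites between 0.1 and 0.9, and 9 embryos had none.

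Reads set aside by the counting tool were compared between fixed and heterozygous sites. These reads are not part of the alternate share, but limits on that share chose both kinds of site. For each embryo the reads of a kind were summed over sites and divided by the summed raw depth, and the difference was tested over the 12 embryos with a two-sided exact sign-flip permutation test, adjusted by Benjamini-Hochberg over 5 measures. For 2 of these, low mapping quality and depth, the selection used the same quantity, so they are given below as a description with no p. The smallest p that 12 embryos allow is 0.000488. Reads with a base other than the 2 listed made up 0.0139% ± 0.0037 at fixed sites and 0.0357% ± 0.00308 at heterozygous sites (SD, n = 12). They were lower at fixed sites in 12 of 12 embryos, and the ranges of both kinds of site did not overlap (exact adjusted p = 0.00061). The difference was -0.0218 percentage points, and -0.0143 as a mean of the shares of single sites.

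Reads in improper pairs made up 0.0485% ± 0.0152 of raw reads at fixed sites and 0.130% ± 0.0434 at heterozygous sites, and were lower at fixed sites in 12 of 12 embryos, with ranges that did not overlap (exact adjusted p = 0.00061). Reads of low base quality made up 0.597% ± 0.0952 and 0.668% ± 0.119, and were lower at fixed sites in 11 of 12 embryos (exact adjusted p = 0.00146). The ranges of the embryos overlapped in this measure, so the difference was one within embryos. Summed over the selected sites, reads with other bases, poor base calls or improper pairs were therefore not more frequent at fixed sites. The limit on the alternate share drops sites at which wrong or misplaced reads add reference bases, while the heterozygous limits can keep them. How far this selection lowered the shares at fixed sites was not tested, so they cannot show whether the fixed sites were called correctly. All embryos were read at the same sites, so p covers the spread between embryos and not that between sites. The sums weight deep sites, and the 4 mitochondrial sites held 28.7% of the reads counted at fixed sites.

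Reads of low mapping quality made up 0.629% ± 0.0569 of raw reads at fixed sites and 0.772% ± 0.0623 at heterozygous sites, and were lower in 12 of 12 embryos. The selection limits the pooled value of both kinds of site to 5%. The direction rested on the weighting of sites by depth. As a mean of the shares of single sites, the value was higher at fixed sites by 0.0236 percentage points. With the mitochondrial sequence left out, the summed difference was -0.355 percentage points, against -0.142 with it. With a share of each base of at least 0.2 asked of heterozygous sites, it was -0.0723 percentage points.

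**Figure D5:**
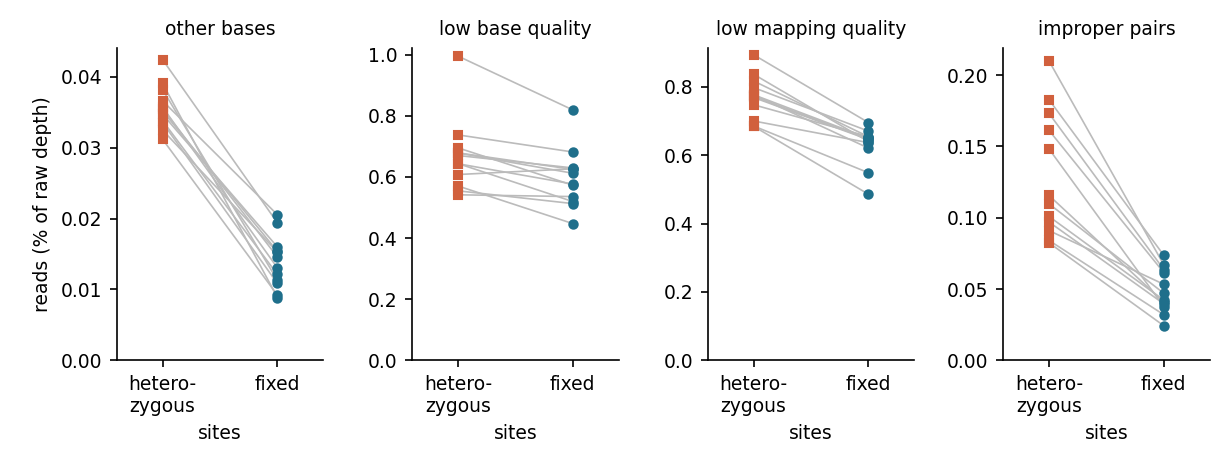
Percent of raw reads with another base, of low base quality, of low mapping quality and in improper pairs at heterozygous sites (squares) and fixed sites (circles), with a line for each of the 12 embryos. Reads with other bases have a mean of 0.0357% at heterozygous and 0.0139% at fixed sites, and reads of low base quality are lower at fixed sites in 11 of 12 lines.

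Depth at fixed sites was compared with that at the nearest heterozygous site within 50 bp, which existed for only 6 of the 193 fixed sites. The median log2 ratio of depth, fixed to heterozygous, was -0.19 in the lowest, -0.11 in the median and -0.02 in the highest embryo. Its mean was -0.10 ± 0.06 (SD, n = 12) and it was negative in 12 of 12 embryos. The pooled log2 ratio of the single pairs ranged from -0.40 for G17713684C on chromosome IV to -0.01 for T7173635C on chromosome VIII, and 2 of the 6 fixed sites, C8807424G and G8807425C, were next to each other and shared their heterozygous neighbour. The mean was -0.05 without replicate 7, when 12 pairs met the limits, and -0.03 for the 2 pairs within 20 bp. The embryos are replicates of the measurement at these 6 places and do not extend it to the other fixed sites.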

How the data were processed

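The deposited values are counts per single-nucleotide site for 12 whole embryos. Per the labels and the methods, the authors trimmed reads with Cutadapt 2.4, aligned these to *gasAcu1-4* by 2-pass STAR mapping, and used GATK 4.1.4.1 to recalibrate base qualities, call variants and count the reads of each allele, without normalization. How sites were chosen for listing, which the sources used here do not give, limits what the number of fixed sites can mean.

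Sites were joined over embryos by position and alleles. Of 321670 sites listed in all 12, 116469 had more than 12 reads in each, and 12489 were removed for mapping quality and 1441 for lying on chrUn. Positions follow *gasAcu1-4*; no genome or annotation of that build was used here, so genes and flanking sequences are not given. Reported were all chromosomes, the 3 with the highest and lowest share, 5 windows, the 5 deepest sites at least 100 kb apart, all clusters up to 5, 3 runs and 3 sites on either side of the limit. The members, the class limits and the lists were chosen with earlier results of these data known. Shares have 95% Clopper-Pearson intervals for counting error over sites, which leave out that nearby sites can be inherited together. Embryo measures were tested with an exact sign-flip permutation test, checked on simulated data. Alternatives covered the alternate share, depth, mapping quality, windows, distances and leaving out each embryo. Python 3.11.15, numpy 2.4.6, pandas 2.3.3 and scipy 1.17.1 were used.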

Additional observations from a re-analysis of the deposited data

How the results depend on the processing

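The number of fixed sites depended on the limit of the alternate share. It was 416 at 0.95, 92 at 0.99 and 34 with no reference read, and between 152 and 228 under the other limits on depth, mapping quality and chrUn. It was 189 without the mitochondrial sequence, an alternative added after seeing the data. When each embryo was left out in turn, with all limits applied to the other 11, it was 200 to 235. The share of transitions was 41.2% of the 34 sites with no reference read, and 53.3% to 61.8% under the other limits. Chromosome IV had the highest share at 0.95 (1.05%) and with more than 30 reads (0.733%), whereas the lowest at 0.95 was chromosome XVI (0.182%). No fixed site had another within 100 bp at 0.99 or with no reference read. At 0.95, 17.3% of sites had a neighbour within 10 bp at the lower and 6.25% at the higher coordinate (added after seeing the data). The left-out embryo was at the limit for 97.8% of sites at 0.95. Low mapping quality changed direction as a mean over single sites, with a difference of 0.0236 percentage points in place of -0.142; without the mitochondrial sequence, an added alternative, the difference was -0.355 percentage points. With each embryo left out it was -0.144 to -0.117. The other 3 read measures kept their direction and their side of the threshold in every alternative run, and the depth ratio kept its direction. The depth ratio was -0.13 to -0.05 with an embryo left out, and -0.03 for the 2 pairs within 20 bp. With 1 group of embryos there is no pairing across groups, and each read measure compares both kinds of site within an embryo. Below 50 reads, 1 reference read removes a site, so depth limits which sites could be called.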
